A study of Mus musculus with 6 samples.

Results

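G protein-coupled receptors span the membrane and pass the binding of a transmitter, peptide, lipid, nucleotide or matrix ligand to heterotrimeric G proteins inside the cell. Receptors coupled to Gs raise cyclic AMP, those coupled to Gi or Go lower it and act on ion channels, and those coupled to Gq or G11 activate phospholipase C. Neurons carry many of them, as receptors for dopamine, acetylcholine, serotonin, GABA, glutamate and neuropeptides, and as orphan receptors with no settled ligand. The genes described here were chosen by symbol: the Gpr-named, Gprc5 and adhesion (Adgr) genes, and receptor genes for monoamines, acetylcholine, nucleotides, adenosine, angiotensin, secretin, sphingosine 1-phosphate, lysophosphatidic acid, prostaglandin E2, GABA and glutamate. The symbol rule matched 108 of the 26436 genes in the authors' deposited table. It uses no measured value. Some families are only partly matched, and 7 of the Gpr-named genes code for proteins known mainly from the Golgi or lysosome membrane and not from the cell surface.

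The cells were CAD cells, a mouse line described in the labels as catecholaminergic and of the central nervous system, and also known as Cath.a-differentiated. The differentiated group was 3 libraries from cells held for 5 days in DMEM/F12 with penicillin, streptomycin and an insulin, transferrin and selenium supplement. The undifferentiated group was 3 libraries from cells in the same base medium with the same antibiotics and fetal bovine serum at 10%. Loss of serum, addition of the supplement and differentiation came together, so their effects cannot be told apart. Nothing in the labels says that replicate libraries stem from separate cultures; the p-values then reflect the spread between the libraries alone, and that spread may be technical.

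The authors' deposited table gives 1 comparison per gene: a mean normalized count, a log2 fold change (differentiated over undifferentiated) with its standard error (SE), and a Wald p-value adjusted by the Benjamini-Hochberg method. A gene is called higher or lower here where that adjusted p is under 0.05. The group levels printed below are normalized counts implied by the mean and the fold change, taking both groups as equally large; they have no SD, because single-library values were not analysed here. In bulk RNA, fewer cells expressing a gene and less of its RNA per cell cannot be told apart.

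Receptor genes were called higher in differentiated cells more often than lower. Of the 108 members, 79 had an adjusted p, and 33 of these were called higher (41.8%), against a background of 18.2% of all 20285 genes tested. Only 7 were called lower (8.86%), against a background of 17.7%. Over both directions the background was 35.9%. Of the 13721 tested protein-coding genes, the class of every member, 23.7% were called higher and 19.4% lower. The backgrounds of 18.2% and 17.7% over all genes tested also apply to the family and list counts below. The median log2 fold change was 0.49 over the tested members and 0.01 over all tested genes, with 59 members above 0 and 20 below. At least 2-fold higher calls were made for 24 members, against a background of 6.37%, and at least 2-fold lower calls for 4, against a background of 2.0%. The other 29 members had no adjusted p, at means of 0.284 to 1.95 normalized counts. They include the muscarinic receptor gene Chrm1, the latrophilin gene Adgrl3 and the nucleotide receptor genes P2ry4, P2ry10 and P2ry14.

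The split by level was uneven. Among the 42 members with a mean of at least 100, 18 were called higher and 5 lower, where the background in that range was 21.9% higher and 25.6% lower (47.5% in all). Between 20 and 100, 8 of 15 were called higher and 2 lower, with a background of 20.7% and 7.15% (27.8% in all). Below 20, 7 of the 22 tested members were called higher and none lower by the authors' DESeq2 test, with a background of 5.99% and 0.704% (6.69% in all). In that range 6 of the 22 tested fold changes were below 0, and 1 of these had an unadjusted p under 0.05. Genes that passed the authors' low-mean filter only through their differentiated libraries had to differ, so the counts below 20 are a description only.

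**Figure D1:**
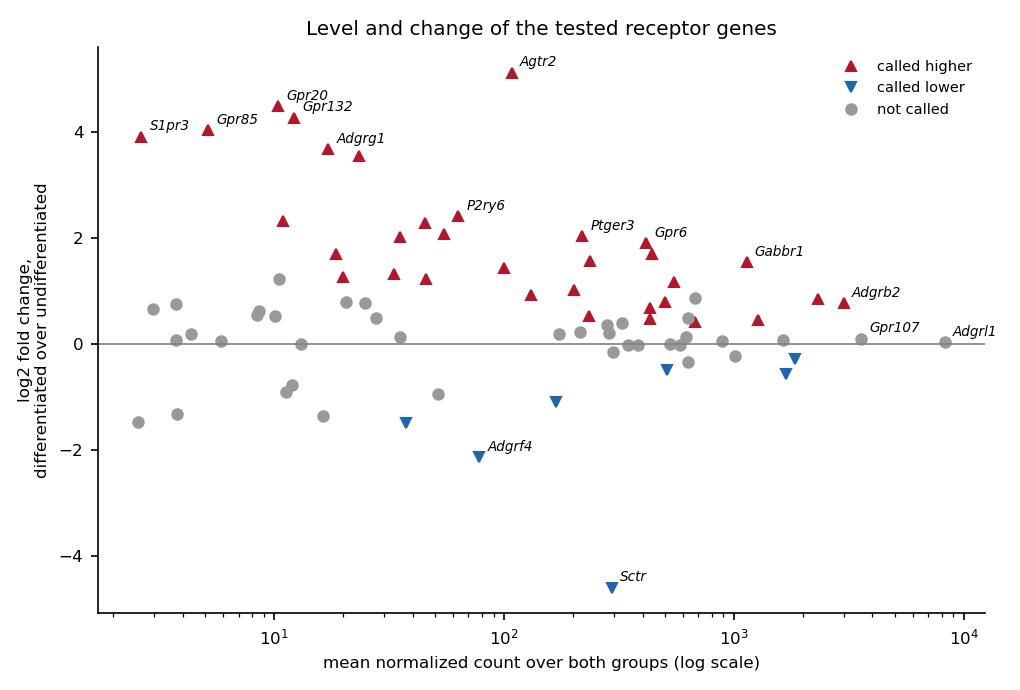
Mean normalized count (x axis, log scale) and log2 fold change, differentiated over undifferentiated (y axis), for the 79 tested receptor genes. Upward red triangles are the 33 genes called higher, downward blue triangles the 7 called lower and grey circles the 39 not called; the extremes are Agtr2 at 5.12 and Sctr at -4.60.

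The peptide receptors held both extremes. Agtr2, the gene for the angiotensin II type 2 receptor, lies at chrX:21484544-21489164 on the plus strand (GRCm38) and had an implied 210 normalized counts in differentiated cells, against 6.04 in undifferentiated cells. That is 34.8-fold higher (95% interval 18.8 to 64.2), with a log2 fold change of 5.12, SE 0.45 and adjusted p of 2.61e-27 in the authors' deposited table. Sctr, the gene for the Gs-coupled secretin receptor at chr1:120006894-120063536 on the plus strand, moved the other way, with 23.3 normalized counts in differentiated cells and 564 in undifferentiated cells. Its log2 fold change was -4.60 in the authors' deposited table, with SE 0.75 and adjusted p of 1.35e-08. The 95% interval of that log2 value ran from -6.06 to -3.14, and its SE was 4.52 times the median SE of the 500 genes nearest to Sctr in mean level, the highest such ratio among the tested members.

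The other angiotensin receptor genes were not called. Agtr1a, for the type 1 receptor that mediates most pressor actions of angiotensin II, had 185 normalized counts in differentiated and 163 in undifferentiated cells, with a log2 fold change of 0.19, SE 0.87 and adjusted p of 0.907 in the authors' deposited table. That SE was 4.37 times the median SE of the 500 genes nearest to it in mean level, so the spread found for this gene was wide. Its 95% interval on the log2 scale, -1.52 to 1.89, leaves a large change in either direction possible. Agtr1b had a mean of 4.35 normalized counts. Agtr1a and Agtr1b are close paralogs, and how reads that fit both were counted is not given in the sources used here, so their split is uncertain.

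The 250 or fewer bases before the start of Agtr2 are shown because that gene had the largest fold change, and those of Gpr6 and Gpr3 because these paralogs, described next, both rose. Sequences are from RefSeq on GRCm38.p6, read 5′ to 3′ on the gene's strand, and capitals mark TGACG or its reverse complement CGTCA, the core of the cyclic AMP response element.
Agtr2, chrX:21484374-21484543, plus strand: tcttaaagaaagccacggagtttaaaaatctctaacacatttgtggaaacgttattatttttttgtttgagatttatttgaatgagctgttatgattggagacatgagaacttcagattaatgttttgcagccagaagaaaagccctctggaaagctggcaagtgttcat
Gpr6, chr10:41072291-41072540, minus strand: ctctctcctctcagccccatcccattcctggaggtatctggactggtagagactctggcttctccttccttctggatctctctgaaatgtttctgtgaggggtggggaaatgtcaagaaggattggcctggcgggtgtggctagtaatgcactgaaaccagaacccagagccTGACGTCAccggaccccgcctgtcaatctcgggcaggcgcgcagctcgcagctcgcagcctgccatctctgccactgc
Gpr3, chr4:133212537-133212786, minus strand: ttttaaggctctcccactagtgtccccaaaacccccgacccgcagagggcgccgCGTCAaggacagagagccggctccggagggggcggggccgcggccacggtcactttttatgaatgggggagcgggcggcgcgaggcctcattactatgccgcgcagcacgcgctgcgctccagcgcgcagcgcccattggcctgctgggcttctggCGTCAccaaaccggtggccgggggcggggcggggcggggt

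Gpr6 and Gpr3 code for related orphan receptors that signal through Gs without an added ligand and so keep cyclic AMP raised. Gpr6, at chr10:41069977-41072285 on the minus strand, had 656 normalized counts in differentiated cells and 175 in undifferentiated cells. It rose 3.75-fold (log2 fold change 1.91, SE 0.18, adjusted p 6.08e-24 in the authors' deposited table). Gpr3, at chr4:133209340-133212536 on the minus strand, had 171 normalized counts in differentiated and 90.5 in undifferentiated cells. Its log2 fold change was 0.92 in the authors' deposited table, with SE 0.21 and adjusted p of 9.8e-05. Both genes were therefore higher, with a larger fold for Gpr6. The difference between the folds was not tested. Exons of Gpr3 overlap those of Cd164l2 on the opposite strand over 7.46% of their length, and Cd164l2 had a mean of 11.7 normalized counts.

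The full palindrome TGACGTCA, in which TGACG and CGTCA overlap, lies in the Gpr6 window, and the Gpr3 window holds 2 separate CGTCA matches. The Agtr2 window holds neither motif, and its GC content is 34.7%, against 58.4% for Gpr6 and 70.8% for Gpr3. On both strands of the 250 bases before the start, TGACGTCA was found in 2 of the 80 members with a RefSeq window (2.5%) and in 1.77% of all 27025 genes with one. The other member was S1pr2, which was not called. The core TGACG was found in 7 of 29 members called higher (24.1%), in 8 of 27 tested members not called (29.6%) and in 19.8% of all genes, and the E-box CAGCTG in 5 of 29, in 5 of 27 and in 14.7% of all genes. The shares in members called higher were thus not above those in members not called. A match describes letters in the window and not a bound site.

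Among GABA and glutamate receptors, Gabbr1 rose. It codes for the GABA-binding subunit of the GABA-B receptor, which works as a dimer with the product of Gabbr2, a gene not analysed here. Gabbr1, at chr17:37045966-37075067 on the plus strand, had 1689 normalized counts in differentiated and 578 in undifferentiated cells. That is 2.92-fold higher (95% interval 2.42 to 3.53), and the authors' deposited table gives a log2 fold change of 1.55, SE 0.14 and adjusted p of 2.51e-26. Grm2, for the Gi-coupled mGlu2, had 9.08 normalized counts in differentiated and 23.4 in undifferentiated cells and was not called (adjusted p 0.0627 in the authors' deposited table). Grm7 and Grm8 had no adjusted p.

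**Figure D2:**
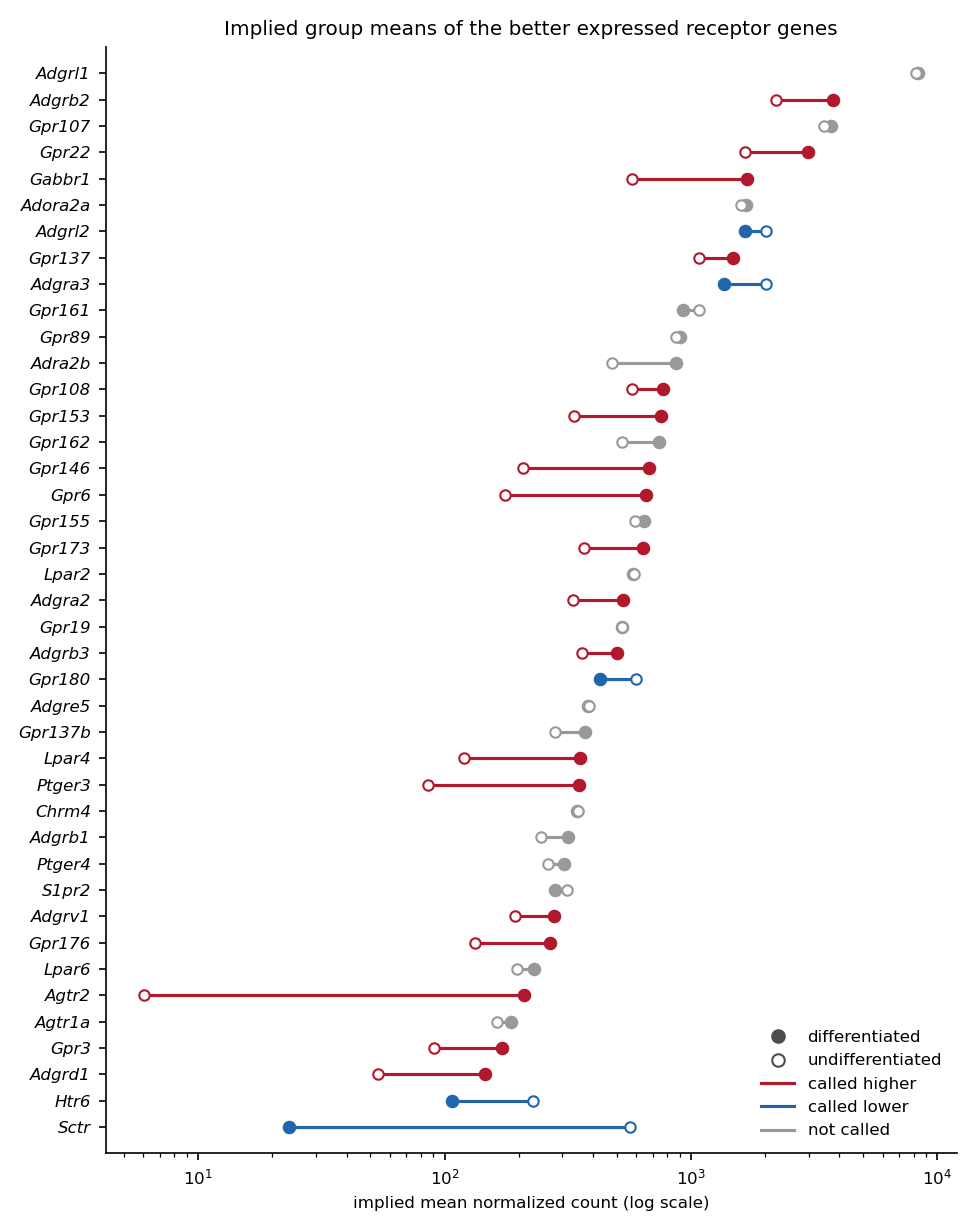
Implied normalized counts (x axis, log scale) of receptor genes with a mean of at least 100, with filled circles for differentiated cells, open circles for undifferentiated cells, and red, blue and grey for genes called higher, called lower and not called. The widest gaps belong to Agtr2, with 210 in differentiated and 6.04 in undifferentiated cells, and Sctr, with 23.3 in differentiated and 564 in undifferentiated cells.

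Of the 12 aminergic receptor genes, 10 were tested, 3 were called higher and 1 lower. Drd1, for the Gs-coupled dopamine D1 receptor, had 88.4 normalized counts in differentiated and 21 in undifferentiated cells (log2 fold change 2.07, SE 0.35, adjusted p 3.7e-08 in the authors' deposited table). Chrm2, for the Gi-coupled muscarinic M2 receptor, had 75 in differentiated and 15.5 in undifferentiated cells (log2 fold change 2.28, SE 0.42, adjusted p 9.91e-07 in the authors' deposited table). Chrm3, for the Gq-coupled M3 receptor, had 56.8 in differentiated and 14.1 in undifferentiated cells, with a log2 fold change of 2.01, SE 0.48 and adjusted p of 0.0002 in the authors' deposited table. These 3 genes were 4.04-fold to 4.84-fold higher, and the highest of their levels in undifferentiated cells was 21 normalized counts, for Drd1. Htr6, for the Gs-coupled serotonin 5-HT6 receptor, fell to 108 normalized counts in differentiated cells, against 229 in undifferentiated cells (log2 fold change -1.09, SE 0.22, adjusted p 6.1e-06 in the authors' deposited table).

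The remaining tested aminergic genes were not called. Chrm4, for the Gi-coupled M4 receptor, was the most even of them at 344 normalized counts in differentiated and 348 in undifferentiated cells, with a 95% interval on the log2 scale of -0.29 to 0.26. Adra2b, for the alpha-2B adrenergic receptor, had 872 normalized counts in differentiated and 480 in undifferentiated cells, but the authors' deposited table gives it a log2 SE of 0.46 and an adjusted p of 0.139. That SE was 3.56 times the median of genes at a like level. Drd2, for the Gi-coupled dopamine D2 receptor, had 8.84 normalized counts in differentiated and 15.1 in undifferentiated cells. Adra2a, Drd4 and Htr2b had means of 3.78, 2.98 and 3.73 normalized counts.

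The nucleotide and adenosine receptors had 7 genes in the table, 4 tested and 3 called higher, and 0 lower at either an adjusted or an unadjusted p under 0.05 by the authors' DESeq2 test. P2ry6, for the Gq-coupled UDP receptor, had 107 normalized counts in differentiated and 20 in undifferentiated cells (log2 fold change 2.41, SE 0.38, adjusted p 6.68e-09 in the authors' deposited table). P2ry2, for the Gq-coupled receptor of ATP and UTP, had 64.1 in differentiated and 27.5 in undifferentiated cells, with a log2 fold change of 1.22, SE 0.38 and adjusted p of 0.00501 in the authors' deposited table. Adora1, for the Gi-coupled adenosine A1 receptor, had 18.2 in differentiated and 3.67 in undifferentiated cells (log2 fold change 2.31, SE 0.84, adjusted p 0.0196 in the authors' deposited table). The abundant gene of this family was the uncalled one. Adora2a, for a Gs-coupled adenosine receptor, had 1678 normalized counts in differentiated and 1589 in undifferentiated cells, and the 95% interval of its log2 fold change was -0.33 to 0.48.

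Of 11 genes for lipid mediator receptors, 10 were tested, 3 were called higher and none lower by the authors' DESeq2 test. Of these 10 fold changes 3 were below 0, and 0 of them had an unadjusted p under 0.05. Ptger3, for the Gi-coupled prostaglandin receptor EP3, lies at chr3:157566892-157645888 on the plus strand and had 351 normalized counts in differentiated cells, against 85.6 in undifferentiated cells. It rose 4.10-fold (log2 fold change 2.04, SE 0.20, adjusted p 3.21e-21 in the authors' deposited table). Lpar4, for a lysophosphatidic acid receptor related to the P2Y receptors, lies at chrX:106920625-106933900 on the plus strand and had 354 in differentiated and 120 in undifferentiated cells. Its log2 fold change was 1.57, with SE 0.21 and adjusted p of 2.79e-12 in the authors' deposited table.

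Other lipid receptor genes with means of at least 100 were not called. Ptger4, for the Gs-coupled EP4 receptor, had 306 normalized counts in differentiated and 263 in undifferentiated cells. Lpar2 had 583 in differentiated and 587 in undifferentiated cells, Lpar6 had 232 and 197 in that order, and S1pr2 had 280 and 313. The log2 intervals of these 4 genes ran from -0.54 at the lowest to 0.67 at the highest. S1pr3 was called higher on 4.96 normalized counts in differentiated and 0.329 in undifferentiated cells, with an adjusted p of 0.0458 in the authors' deposited table, and the size of its fold is not fixed at so low a level.

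The adhesion receptors, with long extracellular parts that bind matrix and neighbouring cells, had 19 genes in the table and 13 tested, of which 6 were called higher and 3 lower. Adgrb2, of the brain angiogenesis inhibitor group, was the most abundant called member of all, with 3770 normalized counts in differentiated and 2220 in undifferentiated cells. The authors' deposited table gives Adgrb2 a log2 fold change of 0.76, SE 0.17 and adjusted p of 7.64e-05. Its relative Adgrb3, whose ligands include C1q-like proteins at synapses, had 499 in differentiated and 362 in undifferentiated cells (log2 fold change 0.46, SE 0.14, adjusted p 0.00462 in the authors' deposited table). Adgrb1 had 316 and 245 in that order and was not called.

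Genes of the A group went in opposite directions. Adgra2, known in brain vessels as a partner of Wnt7 signalling, had 529 normalized counts in differentiated and 331 in undifferentiated cells (log2 fold change 0.68, SE 0.14, adjusted p 2.17e-05 in the authors' deposited table). Adgra3 fell to 1357 in differentiated cells, against 2020 in undifferentiated cells (log2 fold change -0.57, SE 0.12, adjusted p 2.04e-05 in the authors' deposited table). The directions therefore differ between these close relatives, both of which were at 331 normalized counts or more in either group.

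Latrophilins bind teneurins and FLRT proteins across the synapse. Adgrl1 had the highest level of all members, with 8360 normalized counts in differentiated and 8158 in undifferentiated cells, and a 95% interval of -0.13 to 0.20 on the log2 scale; it was not called. Adgrl2 fell slightly, to 1652 in differentiated cells, against 2021 in undifferentiated cells (log2 fold change -0.29, SE 0.11, adjusted p 0.0196 in the authors' deposited table).

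Among the other adhesion genes, Adgrd1 rose to 147 normalized counts in differentiated cells, against 53.9 in undifferentiated cells (log2 fold change 1.44, SE 0.31, adjusted p 3.44e-05 in the authors' deposited table). Adgrv1, an Usher syndrome gene, had 277 in differentiated and 193 in undifferentiated cells, and its adjusted p of 0.0486 in the authors' deposited table is just inside the threshold. Adgrg1, known for its part in cortical development, was called higher on 31.8 in differentiated and 2.48 in undifferentiated cells (adjusted p 1.3e-06 in the authors' deposited table). Adgrf4 was called lower, with 29 in differentiated and 127 in undifferentiated cells, also close to the threshold (adjusted p 0.0472 in the authors' deposited table). The log2 SE of Adgrf4, 0.89, was 3.34 times the median of genes at a like level. The calls of Adgrv1, Adgrf4 and the sphingosine 1-phosphate receptor gene S1pr3 were lost when p-values were adjusted over every gene in the table.

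**Figure D3:**
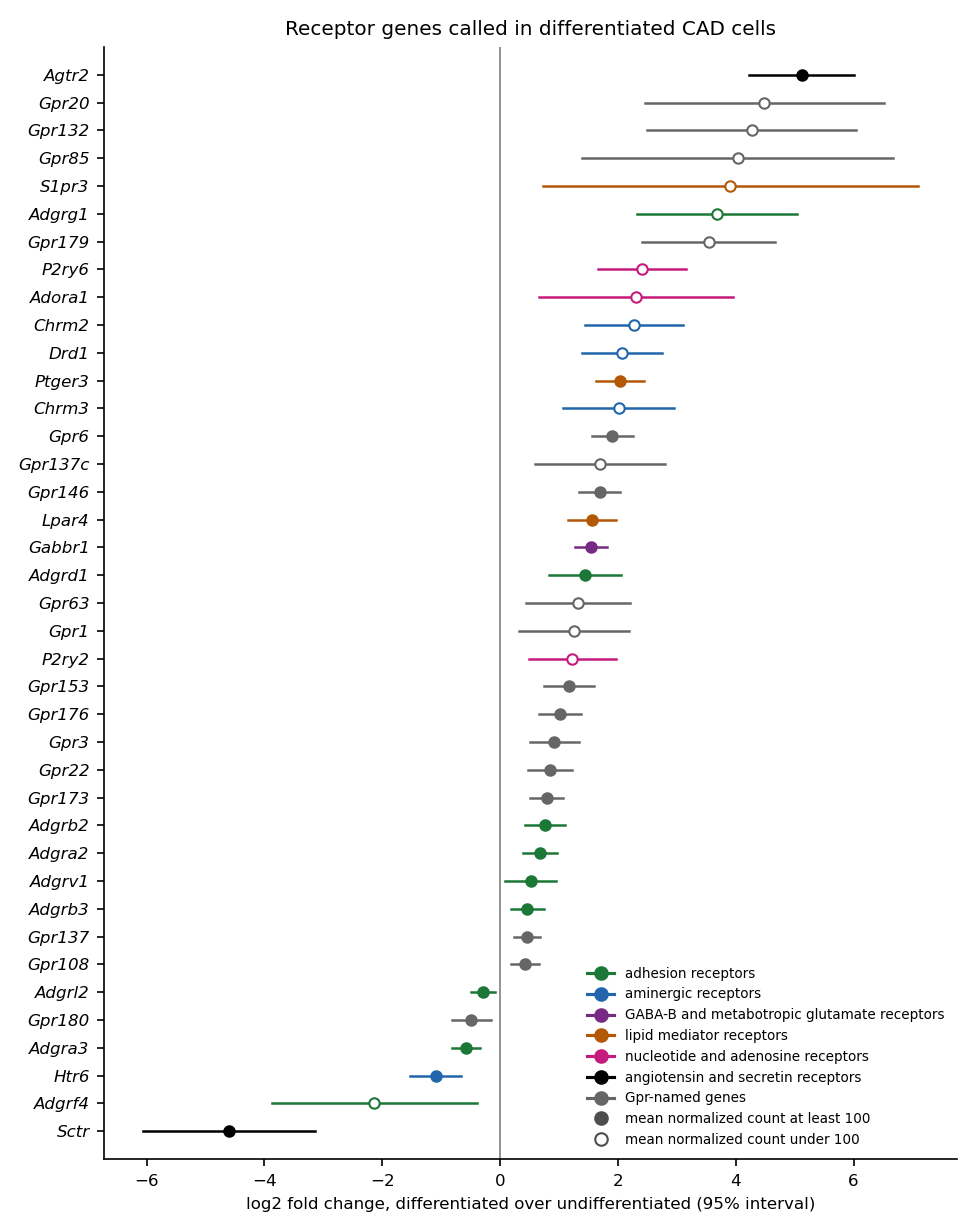
Log2 fold change, differentiated over undifferentiated (x axis), of called receptor genes in order of size, with 95% intervals from the authors' standard errors as bars, family as colour, and filled or open circles for means of at least or under 100. Points right of 0 are the 33 genes higher in differentiated cells, with Agtr2 at 5.12 on top; the lower genes end with Sctr at -4.60, and open circles tend to have the wider bars.

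The largest family, of Gpr-named genes, had 46 in the table and 33 tested, of which 16 were called higher and 2 lower, with a median log2 fold change of 0.55. Besides Gpr6 and Gpr3, Gpr146 rose most among those with a mean of at least 100. Gpr146, which in mice affects plasma cholesterol, lies at chr5:139377697-139396415 on the plus strand and had 673 normalized counts in differentiated and 209 in undifferentiated cells (log2 fold change 1.69, SE 0.18, adjusted p 2.22e-19 in the authors' deposited table). Gpr153, an orphan receptor gene, had 757 in differentiated and 335 in undifferentiated cells, with a log2 fold change of 1.17, SE 0.22 and adjusted p of 8.64e-07 in the authors' deposited table. Gpr162, its closest relative, had 738 in differentiated and 526 in undifferentiated cells and stood just outside the threshold (adjusted p 0.0546 in the authors' deposited table).

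Gpr176, an orphan receptor known from the suprachiasmatic clock, where it couples to Gz, had 269 normalized counts in differentiated and 133 in undifferentiated cells (log2 fold change 1.02, SE 0.18, adjusted p 2.48e-07 in the authors' deposited table). Gpr22, an orphan receptor gene of brain and heart, was the most abundant of the called Gpr-named genes, with 2973 in differentiated and 1657 in undifferentiated cells (log2 fold change 0.84, SE 0.19, adjusted p 7.65e-05 in the authors' deposited table). Gpr173, of the highly conserved brain-expressed SREB group, had 637 in differentiated and 368 in undifferentiated cells (log2 fold change 0.79, SE 0.14, adjusted p 3.16e-07 in the authors' deposited table). Its group member Gpr85 was called higher on 9.68 in differentiated and 0.591 in undifferentiated cells (adjusted p 0.0102 in the authors' deposited table), and Gpr27 had no adjusted p.

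Several further genes of low level were called higher. Gpr132 had 23.2 normalized counts in differentiated and 1.2 in undifferentiated cells (adjusted p 1.97e-05 in the authors' deposited table). Gpr179, an orphan receptor gene known from retinal bipolar cells, had 43 normalized counts in differentiated and 3.70 in undifferentiated cells (log2 fold change 3.54, SE 0.57, adjusted p 1.43e-08 in the authors' deposited table). Gpr20 had 19.9 in differentiated and 0.888 in undifferentiated cells (adjusted p 0.000108 in the authors' deposited table). Gpr63 had 47.7 in differentiated and 19 in undifferentiated cells, and the chemerin receptor gene Gpr1 had 28.2 and 11.8 in that order (adjusted p 0.0125 for Gpr63 and 0.0254 for Gpr1 in the authors' deposited table). For 5 members called higher, namely Gpr132, Gpr20, Gpr85, Adgrg1 and S1pr3, the implied level in undifferentiated cells was under 3 normalized counts, so their fold is not fixed. All but Adgrg1, at 2.48, were there under 2.25, the highest mean of any gene without an adjusted p. Those genes passed the low-mean filter only through their differentiated libraries, so their calls, counted among the 33, are a description only.

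The Gpr-named proteins of intracellular membranes were mostly abundant. Of 7 tested, 3 were called higher and 0 lower by the authors' DESeq2 test, or 4 and 0 at an unadjusted p under 0.05, with all 7 fold changes above 0 and a median log2 value of 0.40. The lysosomal Gpr137 had 1478 normalized counts in differentiated and 1076 in undifferentiated cells (log2 fold change 0.46, SE 0.11, adjusted p 0.000214 in the authors' deposited table). Gpr108, of the Golgi, had 773 in differentiated and 577 in undifferentiated cells, with a log2 fold change of 0.42, SE 0.12 and adjusted p of 0.00199 in the authors' deposited table. The third, Gpr137c, was called on 28.3 in differentiated and 8.73 in undifferentiated cells (adjusted p 0.00963 in the authors' deposited table). Gpr107, the Golgi relative of Gpr108, had 3706 in differentiated and 3460 in undifferentiated cells and was not called, nor was Gpr137b, whose adjusted p was 0.0508 in the authors' deposited table. Exons of Gpr137 overlap those of Bad on the opposite strand over 15.4% of their length, and whether counting used strand is not given in the sources used here.

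Gpr180, which is called a receptor by name and whose signalling is unsettled, fell to 427 normalized counts in differentiated cells, against 597 in undifferentiated cells (log2 fold change -0.48, SE 0.17, adjusted p 0.0156 in the authors' deposited table). Gpr161, a Gs-coupled receptor of the primary cilium that restrains Hedgehog signalling, had 929 in differentiated and 1082 in undifferentiated cells and was not called. Of the 4 Gprc5 genes 2 were tested and 0 called by the authors' DESeq2 test, with 1 at an unadjusted p under 0.05. This was Gprc5b, which had 35.2 in differentiated and 67.9 in undifferentiated cells, with an adjusted p of 0.0809 in the authors' deposited table.

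Per kilobase of exon, the highest mean levels over both groups were 962 normalized counts for Adgrl1, 533 for Adora2a, 502 for Gpr22, 462 for Adgrb2, 376 for Gpr137 and 281 for Gpr107. Adgrl1 was thus the most abundant with or without the length scale. On that scale the mean over both groups was 32.5 normalized counts per kilobase for Agtr2 and 146 for Sctr, each carried mainly by 1 group. All 108 members together made up 0.101% of the summed means. Their implied sum was 42687 normalized counts in differentiated cells and 35402 in undifferentiated cells.

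Main coupling was listed for only part of the members, and Gpr161, named above as Gs-coupled, was not among those listed. Of the 7 tested members listed as Gs-coupled, 3 were called higher (Drd1, Gpr3 and Gpr6) and 2 lower (Htr6 and Sctr). Their median log2 fold change was 0.22. Of 10 tested Gi or Go members, 4 were called higher and 0 lower by the authors' DESeq2 test (1 lower at an unadjusted p under 0.05), with a median of 0.76. Of 8 tested Gq or G11 members, 3 were called higher and 0 lower by that test (0 lower at an unadjusted p under 0.05), with a median of 0.19. All 3 classes thus held called receptors, and the listed genes that fell were of the Gs class. Other members called lower, among them Adgra3, Adgrl2, Adgrf4 and Gpr180, were in none of the 3 lists. Whether the classes differ was not tested. Members with 1 coding exon, a gene form common among these receptors, had 16 of 33 tested called higher and 1 lower, and members with more coding exons had 17 of 46 higher and 6 lower.

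Among G protein genes, the largest folds were those of a gamma and a beta subunit. Of 13 tested beta and gamma genes, 6 were called higher and 0 lower by the authors' DESeq2 test, or 7 and 0 at an unadjusted p under 0.05, with a median log2 value of 0.27. Gng4, a neuronal gamma subunit, had 1085 normalized counts in differentiated and 93.6 in undifferentiated cells (log2 fold change 3.53, SE 0.24, adjusted p 4.49e-48 in the authors' deposited table). Gnb3, the beta subunit known from retinal cones and bipolar cells, had 659 in differentiated and 85 in undifferentiated cells (log2 fold change 2.96, SE 0.26, adjusted p 1.48e-28 in the authors' deposited table). The authors' deposited table gives log2 fold changes of 1.07 for Gng2 and 0.63 for Gng7, which also rose.

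Of 10 tested alpha subunits, 4 were called higher and 1 lower, and none reached 2-fold. Gnao1, for Go, had 11643 normalized counts in differentiated and 7684 in undifferentiated cells, and Gnaz, for Gz, had 1381 and 917 in that order. Their log2 fold changes were 0.60 and 0.59 in the authors' deposited table, and Gna12 followed at 0.48. Gna11 fell by 0.41 on the log2 scale in the authors' deposited table. Gnas, for Gs, had 7072 in differentiated and 8844 in undifferentiated cells and was not called (adjusted p 0.0725 in the authors' deposited table).

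Regulators and effectors had calls in both directions. Of 11 tested RGS genes, whose products speed the end of G protein signals, 3 were called higher and 1 lower. That is 27.3% and 9.09%, against a background of 18.2% and 17.7% over all genes tested. Rgs4 was the largest of these at the higher levels, with 10674 normalized counts in differentiated and 4034 in undifferentiated cells (log2 fold change 1.40, SE 0.35, adjusted p 0.000429 in the authors' deposited table). Rgs5 and Rgs19 had log2 fold changes of 0.65 and -0.24 in the authors' deposited table. Of the 7 receptor kinase and arrestin genes, which end receptor signalling, 2 fell and 0 were called higher by the authors' DESeq2 test (0 higher at an unadjusted p under 0.05). The 2 called lower are 28.6% of this list, against the background of 17.7%. Grk6 fell by 0.58 and Grk3 by 0.50 on the log2 scale in the authors' deposited table. Grk2, Arrb1 and Arrb2 were not called, with adjusted p of 0.392, 0.133 and 0.18 in the authors' deposited table.

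Of 12 tested adenylyl cyclase and phospholipase C beta genes, 2 were called higher and 2 lower. That is 16.7% each way, near the background of 18.2% higher and 17.7% lower over all genes tested. Adcy9 had a log2 fold change of 0.79, Plcb4 of -0.50 and Plcb3 of -0.48 in the authors' deposited table. Of 15 receptor accessory and trafficking genes, 7 were called higher (46.7%) and 3 lower (20%), against the same background. Reep2 and Reep1, for proteins that shape endoplasmic reticulum and aid receptor export, had log2 fold changes of 1.09 and 0.82, Gprasp1, for a receptor-sorting protein, of 0.71, and Gpsm2 of -0.65, all in the authors' deposited table.

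**Figure D4:**
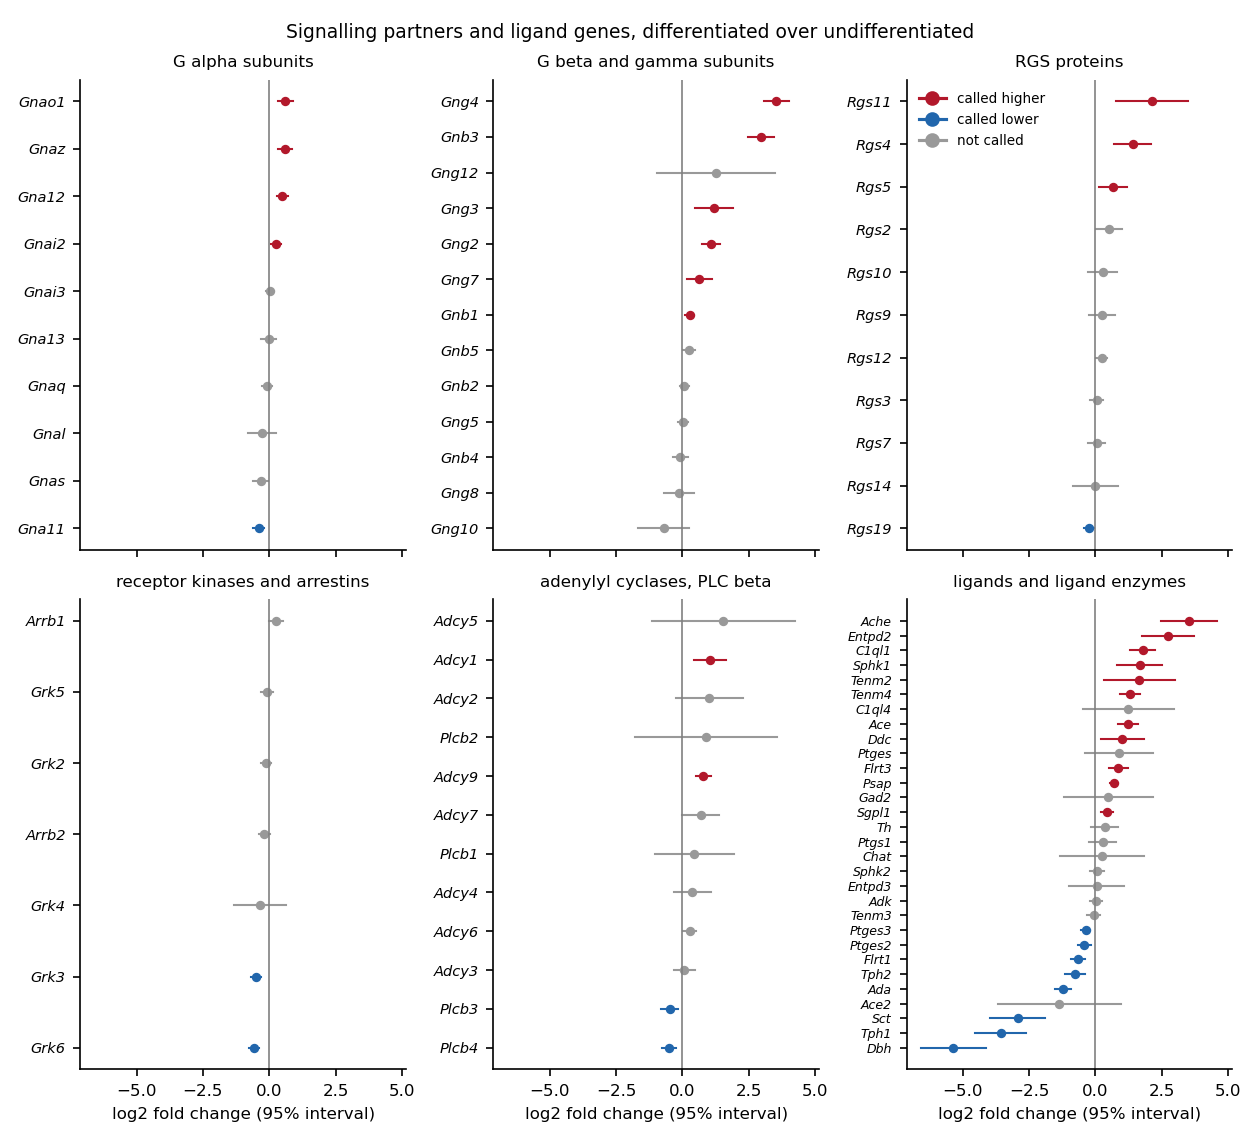
Log2 fold change, differentiated over undifferentiated (x axis, 95% intervals as bars), for G protein subunits, RGS proteins, receptor kinases and arrestins, effectors, and ligand genes. Red points are called higher, blue points called lower and grey points not called; Gng4 at 3.53 and Ache at 3.52 are the highest called genes shown and Dbh at -5.35 the lowest.

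Genes for ligands of the member receptors, and for enzymes that make or remove them, had 30 tested, 11 called higher and 8 lower. That is 36.7% and 26.7%, against a background of 18.2% and 17.7% over all genes tested. The 4 with the largest changes at a mean of at least 100 were Dbh, Ache, C1ql1 and Tenm4. Dbh, which makes noradrenaline from dopamine, had 14 normalized counts in differentiated and 569 in undifferentiated cells (log2 fold change -5.35, SE 0.62, adjusted p 3.63e-16 in the authors' deposited table). Ache, for the enzyme that breaks down acetylcholine, had 2466 in differentiated and 214 in undifferentiated cells (log2 fold change 3.52, SE 0.54, adjusted p 1.66e-09 in the authors' deposited table). C1ql1, for a ligand of Adgrb3, and Tenm4, for a teneurin that belongs to the ligand family of latrophilins, had log2 fold changes of 1.78 and 1.31 in the authors' deposited table.

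Further ligand genes are named here after their values were seen, beside called receptors, and they went both with and against them. Sct, for secretin, fell like its receptor gene Sctr, with 13.8 normalized counts in differentiated and 105 in undifferentiated cells (log2 fold change -2.93, SE 0.53, adjusted p 3.99e-07 in the authors' deposited table). Tph1 and Tph2, for the enzymes that start serotonin synthesis, fell by 3.57 and 0.76 on the log2 scale in the authors' deposited table, beside the fall of Htr6. Ace, for the enzyme that makes angiotensin II, rose by 1.23 on the log2 scale in the authors' deposited table, beside the rise of Agtr2, while Agt, the gene of the precursor, was at a mean of 0.421 normalized counts. Ptges2 and Ptges3, named as prostaglandin E synthase genes, fell by 0.42 and 0.37 on the log2 scale in the authors' deposited table, while the receptor gene Ptger3 rose. Ptges, at a mean of 9.19 normalized counts, and Ptgs1, of the same pathway, were not called. Their log2 fold changes were 0.88 and 0.28 (adjusted p 0.311 and 0.446 in the authors' deposited table). Entpd2, for an enzyme that splits extracellular ATP, rose by 2.73, and Ada, which removes adenosine, fell by 1.22 on the log2 scale in the authors' deposited table.

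Receptor genes outside the symbol rule gave a like balance. Of 81 in the table, 60 were tested, 22 were called higher (36.7%) and 7 lower (11.7%), against a background of 18.2% and 17.7%. Their median log2 fold change was 0.36, against 0.49 for the members, of which 33 of 79 were called higher and 7 lower. Whether the lists differ was not tested. Crhr1, for the corticotropin-releasing hormone receptor, Calcrl, Celsr1 and Gper1 had log2 fold changes of 1.93, 1.53, 1.36 and 1.31 in the authors' deposited table.

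Marker lists were set against the labelled cell type. All 18 catecholaminergic neuron markers were in the table, with 8 called higher and 4 lower, and Th, not called, had 102 normalized counts in differentiated and 80.6 in undifferentiated cells. The 4 called lower were Dbh and the transcription factor genes Phox2a, Isl1 and Gata2. The summed implied levels of that list were 160266 in differentiated and 113392 in undifferentiated cells, of which the granin gene Chgb alone made up 90786 in differentiated and 49921 in undifferentiated cells. Microglia markers (2 of 7 in the table) had a summed mean of 2.32 normalized counts, astrocyte markers (3 of 6) 10.2 and oligodendrocyte markers (4 of 5) 97.1, with Mbp called higher in the last. Endothelial markers (4 of 5) summed to 810 in differentiated and 469 in undifferentiated cells, nearly all from Pecam1, and fibroblast markers (6 of 6) to 421 and 113 in that order, mostly from Pdgfrb. Pecam1 and Pdgfrb were called higher. The part of these markers in the receptor results was not tested.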

How the data were processed

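Per the labels' protocols, stranded mRNA libraries were made from DNase-treated RNA and read from a single end for 50 bp. The authors used DESeq2 after STAR 2.5.1a, Trimmomatic 0.36 and FastQC 0.11.5, on build GRCm38.p6, per the submitters' processing notes. How reads were counted (program, strand, multiple matches, annotation) is not given in the sources used here, and was not inferred.

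The authors deposited 1 comparison of the groups. Its signal column is, per the file headers, a mean normalized count. The authors' deposited log2 fold change has a log2 SE. The authors' score is a Wald statistic, equal to fold change over SE (largest difference 1.24e-13). The authors' p-value was recovered from that score as a 2-sided normal p, and Benjamini-Hochberg adjustment over 20285 genes gave back their adjusted p-value (largest difference 1.44e-15); 6151 genes without one have means of at most 2.25. Library depths were not analysed here; the means sum to 38846803 normalized counts.

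Python 3.11.15, pandas 2.3.3, numpy 2.4.6 and scipy 1.17.1 were used. With mean m and fold f, implied levels are 2mf/(1+f) in differentiated cells and 2m/(1+f) in undifferentiated cells. This takes m as the mean over these 6 libraries, which the header does not state. Intervals of 95% are the fold change plus or minus a normal quantile times SE. Members were matched by symbol; 9738 rows carry no symbol, and 1 of them matches the rule by its GENCODE M21 symbol and was left out. Coordinates, exons and the symbols of the other lists came from GENCODE M21 (26276 IDs matched). Members and lists were chosen with earlier results of these data known, so their counts are descriptions. Values of 2 members are not reported here. Group levels are given for the 10 highest members and for those called at a mean of 100 or more. The called ones also have log2 fold change, SE and adjusted p, except Adgrv1, which has only the adjusted p. Shorter values are given for other called members. For each other list, up to 4 called genes at that mean are given, with Gnas, Arrb1, Arrb2 and Grk2 always. Recomputed adjustments were tested on simulated data. Alternatives were another threshold, other sets of genes adjusted over, other scalings, a tested minimum fold and Holm adjustment.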

Additional observations from a re-analysis of the deposited data

How the results depend on the processing

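The 33 higher and 7 lower receptor calls changed by over 1.5 times in the threshold, adjustment and fold settings named next. Adjusting over genes with a mean of at least 100 gave 20 higher calls (background 23.0%), because members below that mean are then left out; among the 42 members kept, the higher calls were 20 in place of 18 and none was lost. Testing for a fold of at least 1.5 left 13 higher and 1 lower (background 3.02% and 1.21%), and Holm adjustment left 16 and 3 (background 5.67% and 5.98%). An adjusted p under 0.01 left 4 lower calls (background 13.4%). Leaving out the Gpr-named proteins of intracellular membranes and pseudogenes stayed within 1.5 times, at 30 higher and 7 lower. By family, and again through members left out, the mean of at least 100 gave 1 of 4 aminergic and 0 of 3 nucleotide and adenosine calls, and 17 of 29 calls among receptors outside the rule. The fold test left 2 aminergic, 1 nucleotide, 1 of 9 adhesion and 5 of 18 Gpr-named calls, and Holm left 1 nucleotide, 3 adhesion and 7 Gpr-named calls.

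For the other lists, the fold test left 0 of 5 calls among alpha subunits, 2 of 6 among beta and gamma subunits, 0 of 4 among RGS genes, 0 of 2 among kinases and arrestins, 0 of 4 among cyclases and phospholipases, 0 of 10 among accessory genes, 9 of 19 among ligand genes and 8 of 29 among outside receptors. Holm left 0, 3, 0 and, from cyclases on, 1, 4, 11 and 14 in that order. RGS calls fell to 2 under an adjusted p of 0.01 and to 2 when adjusted over every gene.

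Of the 40 called receptors, 13 kept their call in every one of the 9 settings that gave them a value, among them Agtr2, Sctr, Gabbr1, Gpr6, Gpr146, Ptger3, Lpar4, Drd1 and Chrm2; 24 lost it only under the stricter threshold, the fold test or Holm. Adgrf4, Adgrv1 and S1pr3 also lost it when adjusted over every gene, Adgrf4 at equal implied totals and Adgrv1 at median centring. Gpr137b and Gpr162 were called in 4 settings. Uncalled genes near 0 changed sign: at equal totals Adgre5 came to 0.0066, Ptger1 to 0.014, Lpar2 to 0.013 and Chrm4 to 0.0046 on the log2 scale, and at median centring Gpr19 came to -0.0030. Both scalings moved all genes by under 0.1. The cause of these changes was not tested.

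No paired analysis was possible because single-library values were not analysed here. For the same reason, leaving out each library was not run, and a single library's part in any call, including the wide SE of Agtr1a, Adra2b, Adgrf4 and Sctr, is unknown. Low levels limit what can be called: 29 members had no adjusted p.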

Other observations

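Gpr179, Gnb3 and Rgs11 are known from retinal bipolar cells, where their products work in the signalling of a metabotropic glutamate receptor, and all 3 were called higher in differentiated cells. This set was put together after the values were seen. Rgs11 had 22.1 normalized counts in differentiated and 5.05 in undifferentiated cells (log2 fold change 2.13, SE 0.69, adjusted p 0.00765 in the authors' deposited table). Its relative Rgs7 had 768 in differentiated and 745 in undifferentiated cells, and Gnb5, for the beta subunit that pairs with both RGS proteins, had 727 and 610 in that order; neither was called. The levels of Gpr179 and Gnb3 are given above.

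Among receptors outside the symbol rule, named after their values were seen, Ntsr1, for the neurotensin receptor, had 48.2 normalized counts in differentiated and 2.92 in undifferentiated cells (adjusted p 5.73e-07 in the authors' deposited table). Cxcr4, for the chemokine CXCL12 receptor, fell to 18.5 in differentiated cells, against 134 in undifferentiated cells (log2 fold change -2.85, SE 0.34, adjusted p 8.07e-15 in the authors' deposited table). Sstr2, for a somatostatin receptor, fell to 81.1 in differentiated cells, against 193 in undifferentiated cells (log2 fold change -1.25, SE 0.27, adjusted p 2.23e-05 in the authors' deposited table).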
